A study of Mus musculus with 18 samples.

Results

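The genes of the S-phase and DNA damage checkpoint followed here, in crypts of the mouse small intestine, were Atr, Atrip, Atm, Rad17, Clspn, Timeless, Tipin, Chek1, Chek2 and Wee1. They were taken by name, and all 10 had at least 1 probe set that carried only their symbol, among 18193 genes measured in this way. Together they had 20 such probe sets, and each gene is read from whichever of its probe sets was brightest on average across the 18 arrays. Total RNA of crypts from mice aged 2 months was hybridised to 18 arrays, 1 per sample. The control group had 4 arrays, and crypts with E2f1, E2f2 and E2f3 ablated (E2f TKO) had 5. Crypts with Myc ablated (Myc KO) had 4 arrays, and crypts with all 4 genes ablated (E2f/Myc QKO, called QKO here) had 5. The alleles were deleted in the intestine with the inducible recombinase Ah-cre, which is driven by the promoter of Cyp1a1, and crypts were collected 2 days later. The labels give neither the alleles of the control mice nor whether those mice carried Ah-cre. They name no strain, sex or batch and do not say that each array is a separate mouse, so the p-values measure the spread between these samples, which may be technical.

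The checkpoint halts the cell cycle when DNA is damaged or when replication forks stall. ATR, brought to single-stranded DNA by its partner ATRIP, answers stalled forks, and ATM answers double-strand breaks. RAD17 loads the ring-shaped 9-1-1 clamp that helps to switch ATR on. Claspin (Clspn), TIMELESS and TIPIN travel with the fork and pass the ATR signal to the kinase CHK1 (Chek1), whereas ATM mainly passes its signal to CHK2 (Chek2). WEE1 phosphorylates and inhibits the cyclin-dependent kinases, which holds cells before mitosis. Crypts hold the dividing cells of the intestinal epithelium. The E2f factors regulate genes of S phase, and Myc regulates genes of growth and proliferation.

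The median log2 signal of an array lay at 6.14 to 6.19 in groups with intact Myc and at 6.22 to 6.26 in groups without it. The mean signal of a list of 5 epithelial markers was 12.51 to 13.26 in all arrays, that of 3 Paneth cell markers 13.09 to 13.94 and that of 7 enterocyte markers 12.29 to 14.10, so crypt markers were present and so were markers of the villus. Myc itself read 7.94 to 8.52 where it was deleted, against 9.69 to 10.66 where it was not. E2f3 read 8.09 to 8.19 in QKO arrays and 8.62 to 8.96 in controls. In the E2f TKO arrays E2f3 read 8.22, 9.35, 8.39, 8.08 and 9.10, so the libraries labelled E2f TKO 2 and 5 were above every control. In those same libraries Cyp1a1 read 5.05 and 4.91, against 12.66 to 14.09 in all other arrays. The E2f1 and E2f2 probe sets did not separate the groups, and whether they lie in the deleted parts is not known here. The library labelled E2f TKO 1 also stood apart, with the mean of 9 T cell markers 1.49 above the control mean and that of 11 mitotic genes at -1.59 from it. In that library the mean of 7 enterocyte markers was 0.79 above the control mean, and that of 5 stem cell markers was at -0.75 from it. For the brightest probe sets, each E2f TKO result against control is therefore also given without the libraries labelled 2 and 5, and without 1 or all 3 of them where that changed a call.

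In QKO crypts the fork protein Timeless and the effector kinases Chek1 and Chek2 were the genes that rose most, Clspn rose less, and Rad17 and Atrip fell. Atr, Atm, Tipin and Wee1 did not pass the test there. Against control, 4 of the 10 genes were higher and 2 lower in QKO crypts, where 14.3% of all 18193 genes were higher and 12.6% lower. In E2f TKO crypts Timeless alone passed the test, 1 gene higher and 0 lower, where 1.68% of all genes were higher and 1.22% lower. In Myc KO crypts Atr alone passed, 1 gene lower and 0 higher, where 4.72% of all genes were lower and 3.59% higher. The median log2 difference of the 10 genes from control was 0.04 in E2f TKO, -0.21 in Myc KO and 0.10 in QKO crypts, beside medians over all genes of 0.00, 0.02 and 0.03. A gene passed when its adjusted p from the limma fit to all 18 arrays, with Benjamini-Hochberg adjustment over the 18193 genes, was below 0.05. Every p-value below is from this two-sided test, and a difference is given on the log2 scale with its standard error. In these bulk samples, fewer cells of a type and less RNA per cell cannot be told apart.

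**Figure D1:**
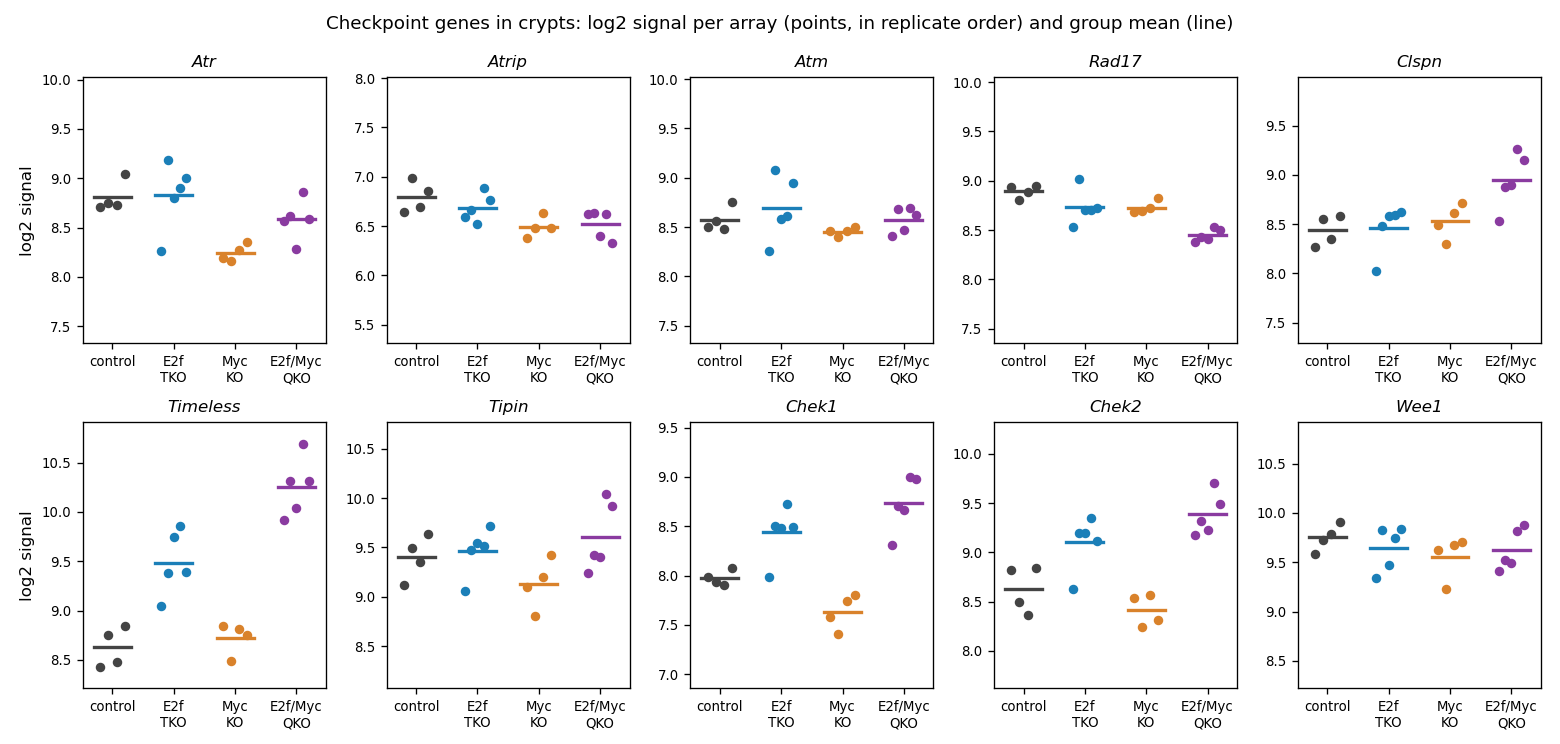
Log2 signal of the 10 checkpoint genes (vertical axis) by group (horizontal axis), with 1 point per array in replicate order and the group mean as a line; each vertical axis spans the same number of log2 units but not from 0. Timeless lies at 9.92 to 10.69 in the QKO arrays and 8.43 to 8.84 in the control arrays, and Rad17 at 8.38 to 8.53 in QKO arrays and 8.80 to 8.95 in controls.

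Timeless, whose protein binds TIPIN in the fork protection complex, changed most of the 10 genes. The control arrays 1 to 4 read 8.43, 8.75, 8.48 and 8.84, and the Myc KO arrays 8.84, 8.49, 8.81 and 8.75. The E2f TKO arrays 1 to 5 read 9.05, 9.38, 9.75, 9.86 and 9.39, and the QKO arrays 9.92, 10.31, 10.04, 10.69 and 10.31. QKO 4, the highest of its group for 8 of the 10 genes, also stood apart in its stem cell markers, 1.30 above the control mean, and its enterocyte markers, at -1.01 from it. Every E2f TKO array was above every control and Myc KO array, and every QKO array was above every E2f TKO array, while control and Myc KO arrays overlapped. In QKO crypts Timeless was 3.09-fold higher than in control crypts, a difference of 1.63 ± 0.16 (limma adjusted p = 4.63e-06), the 55th highest of the 18193 genes. Without QKO 4 it was 1.52 ± 0.16 (adjusted p = 1.09e-05). It was also 1.81-fold higher in E2f TKO crypts (0.86 ± 0.16, adjusted p = 0.00593). That difference was 0.93 ± 0.19 without the libraries labelled E2f TKO 2 and 5 (adjusted p = 0.00837). In Myc KO crypts it was 0.10 ± 0.17 (adjusted p = 0.779), with an interval from -0.27 to 0.46.

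The dimmer probe set of Timeless was also higher in QKO crypts. It read 6.85, 7.11, 7.11 and 7.46 in controls and 8.27, 8.76, 8.82, 9.41 and 9.16 in QKO arrays, with no overlap, and differed by 1.75 ± 0.24 (limma over all probe sets, adjusted p = 4.81e-05). In E2f TKO arrays it read 7.78, 7.06, 8.20, 8.30 and 8.31, with the library labelled 2 inside the control range. There it differed by 0.80 ± 0.24 and missed the threshold (adjusted p = 0.0896). The Myc KO arrays read 7.45 to 7.68 for this probe set and differed from control by 0.49 ± 0.25 (adjusted p = 0.227). E2f TKO 2 lay below all of them, and E2f TKO differed from Myc KO by 0.31 ± 0.24 (adjusted p = 0.4). The separation of E2f TKO from Myc KO arrays therefore held for the brighter probe set only.

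Tipin, which encodes the partner of TIMELESS, did not pass in any of the 7 comparisons of the fit to all arrays. Its signal was 9.12 to 9.64 in controls, 9.06 to 9.72 in E2f TKO, 8.80 to 9.42 in Myc KO and 9.24 to 10.04 in QKO arrays, and every pair of groups overlapped. The difference from control was 0.06 ± 0.17 in E2f TKO, -0.27 ± 0.18 in Myc KO and 0.20 ± 0.17 in QKO crypts (adjusted p = 0.94, 0.394 and 0.414). The interval for QKO ran from -0.16 to 0.57, below the interval of 1.28 to 1.98 for Timeless. These are separate probe sets, and the difference between them was not itself tested. The E2f TKO difference of Tipin was -0.03 ± 0.20 without the libraries labelled E2f TKO 2 and 5.

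Claspin, the adaptor through which ATR reaches CHK1, rose in QKO crypts with some overlap between arrays. Clspn read 8.27, 8.55, 8.35 and 8.58 in controls, 8.02, 8.48, 8.58, 8.59 and 8.62 in E2f TKO and 8.49, 8.30, 8.61 and 8.71 in Myc KO arrays. The QKO arrays read 8.53, 8.88, 8.90, 9.26 and 9.15. Of these, QKO 1 lay inside the control range and the other 4 above it. Clspn was 1.42-fold higher in QKO than in control crypts (0.51 ± 0.14, adjusted p = 0.0148), and its dimmer probe set differed by 0.45 ± 0.14 (adjusted p = 0.0225 over all probe sets). E2f TKO differed from control by 0.02 ± 0.14 (adjusted p = 0.977, and -0.04 ± 0.17 without the libraries labelled 2 and 5). Myc KO differed by 0.09 ± 0.15 (adjusted p = 0.768). Clspn lies within 20 Mb of the deleted E2f2 on chromosome 4, so a difference carried along with the targeted allele cannot be told apart from one caused by its loss.

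Chek1 and Chek2, the effector kinases of the ATR and ATM arms, rose by nearly the same amount in QKO crypts. Chek1 read 7.98, 7.93, 7.90 and 8.08 in controls and 8.31, 8.71, 8.66, 9.0 and 8.98 in QKO arrays. Every QKO array was above every control, and the difference was 1.69-fold (0.76 ± 0.14, adjusted p = 9e-04). In Myc KO arrays Chek1 read 7.58, 7.41, 7.74 and 7.80, all below every control, but the difference of -0.34 ± 0.15 missed the threshold (adjusted p = 0.177), though it passed when only control and Myc KO arrays were fitted (adjusted p = 0.0357). That setting also raised the number of all genes lower in Myc KO crypts from 858 to 1522. In E2f TKO arrays Chek1 read 7.99, 8.50, 8.48, 8.73 and 8.49, with the library labelled 1 inside the control range and the other 4 above it.

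Chek2 read 8.82, 8.50, 8.36 and 8.84 in controls and 9.18, 9.32, 9.23, 9.70 and 9.49 in QKO arrays. No QKO array overlapped the controls, and the difference was 1.69-fold (0.75 ± 0.14, adjusted p = 0.00111). The E2f TKO arrays read 8.63, 9.20, 9.20, 9.35 and 9.12, again with the library labelled 1 among the controls and the other 4 above them. In Myc KO arrays it read 8.54, 8.24, 8.57 and 8.31 and overlapped the controls (-0.21 ± 0.15, adjusted p = 0.423).

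For both kinases the E2f TKO result changed with the libraries kept and with their weights. With all 5 arrays Chek1 and Chek2 each differed from control by 0.47 ± 0.14 and missed the threshold (limma adjusted p = 0.1 and 0.107). Without E2f TKO 1 the differences were 0.58 ± 0.13 and 0.59 ± 0.13, and both passed (adjusted p = 0.0133 and 0.0116). With all 5 arrays kept but each array weighted by its fit, they were 0.54 ± 0.12 and 0.58 ± 0.12 and passed (adjusted p = 0.00855 and 0.0074), a setting that also raised the number of all genes higher in E2f TKO crypts from 305 to 735. Both were 0.43 ± 0.17 and did not pass without the libraries labelled E2f TKO 2 and 5 (adjusted p = 0.152 and 0.161). Without all 3 they were 0.63 ± 0.16 and 0.64 ± 0.16 and passed (adjusted p = 0.0288 and 0.0251). E2f TKO 1 was the lowest array of its group for 9 of the 10 genes, Atrip being the other. What part its mitotic, T cell, enterocyte and stem cell signals had in this was not tested.

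Chek1 had 5 probe sets, and they did not read alike. The 2 brightest, at means of 8.24 and 7.85 over the 18 arrays, gave QKO differences of 0.76 ± 0.14 and 0.79 ± 0.16. The probe sets at 5.56 and 6.37 gave 0.50 ± 0.10 (adjusted p = 0.00191 over all probe sets) and 0.30 ± 0.20 (adjusted p = 0.285). The dimmest, at 4.50, gave -0.10 ± 0.10, and its signal of 4.33 to 4.80 was below the median of every array. No detection calls were used, so whether it was above background is not known here. In Myc KO crypts the 5 probe sets gave -0.34, -0.34, -0.29, 0.16 and -0.03, from brightest to dimmest, and none passed.

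**Figure D2:**
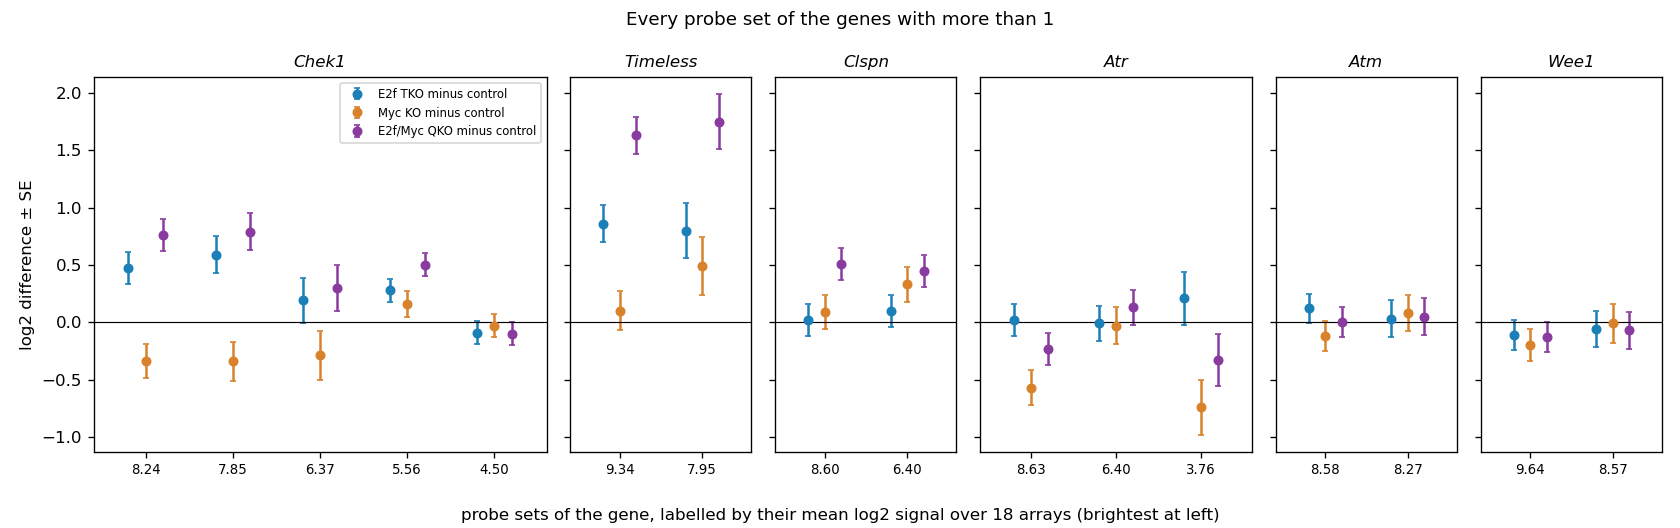
Log2 difference from control with its standard error (vertical axis) for every probe set of the 6 genes with more than 1, labelled along the horizontal axis by mean log2 signal over 18 arrays, for E2f TKO (blue), Myc KO (orange) and QKO (purple). Both Timeless probe sets lie at 1.63 and 1.75 in QKO, the brighter Chek1 probe sets near 0.76 and 0.79, and the second Atr probe set stays at -0.03 in Myc KO, where the first is at -0.57.

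In the brightest probe set of each, Atr and its partner Atrip, which start the signal at stalled forks, had their lowest group means where Myc was deleted. Atr read 8.71, 8.75, 8.73 and 9.04 in controls and 8.19, 8.16, 8.27 and 8.35 in Myc KO arrays. The groups did not overlap, and Atr fell by 0.57 ± 0.15, or 1.48-fold, in Myc KO crypts (limma adjusted p = 0.0303). The E2f TKO arrays read 8.26, 9.19, 8.80, 8.90 and 9.0 and the QKO arrays 8.57, 8.62, 8.28, 8.86 and 8.59, and both groups overlapped the controls. The differences there were 0.02 ± 0.15 and -0.23 ± 0.15 (adjusted p = 0.976 and 0.268). For E2f TKO it was -0.16 ± 0.14 without the libraries labelled 2 and 5.

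The fall of Atr in Myc KO crypts was a close call. Leaving out any of control 2, 3 or 4 or of Myc KO 1, 2 or 3 ended it (differences of -0.49 to -0.59, adjusted p = 0.0515 to 0.103). The 3 probe sets of Atr also differed in Myc KO, with -0.57 for the brightest, -0.03 ± 0.16 for the one at a mean of 6.40 and -0.74 ± 0.24 (adjusted p = 0.059 over all probe sets) for the dimmest, at 3.76. With the mean of the 3 in place of the brightest, the difference was -0.45 (adjusted p = 0.111).

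Atrip read 6.64, 6.99, 6.69 and 6.86 in controls, 6.38, 6.48, 6.63 and 6.48 in Myc KO and 6.62, 6.63, 6.40, 6.62 and 6.33 in QKO arrays. Every Myc KO and QKO array was below every control, though the nearest arrays read 6.63 and 6.64. This probe set, the only one of the gene, lay near the array medians of 6.14 to 6.26, and whether it was above background is not known here. Atrip fell by 0.27 ± 0.09 in QKO crypts (1.21-fold, adjusted p = 0.0402), while its Myc KO difference of -0.30 ± 0.10 missed the threshold (adjusted p = 0.0694), and passed after quantile normalization (-0.37, adjusted p = 0.0272) or when arrays were weighted (-0.30, adjusted p = 0.0303). The QKO call ended without control 2, control 4, QKO 3 or QKO 5, at -0.21 to -0.25 (adjusted p = 0.0919 to 0.146). Fitting only control and QKO arrays ended it too (adjusted p = 0.0551), as did Xist as a covariate (adjusted p = 0.0558). The E2f TKO difference was -0.11 ± 0.09 (adjusted p = 0.69, and -0.13 ± 0.11 without the libraries labelled 2 and 5).

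Atm, the kinase of the double-strand break response, did not pass in any comparison, except against Myc KO without E2f TKO 1, where E2f TKO crypts were 0.35 higher (adjusted p = 0.0239). It read 8.48 to 8.75 in controls, 8.26 to 9.08 in E2f TKO, 8.40 to 8.50 in Myc KO and 8.41 to 8.69 in QKO arrays. In QKO crypts the difference was 0.00 ± 0.13, with an interval from -0.26 to 0.26, and the second probe set gave 0.05 ± 0.16. It was 0.12 ± 0.13 in E2f TKO crypts, and -0.09 ± 0.10 without the libraries labelled 2 and 5, which gave its highest readings of 9.08 and 8.95. The sign of that uncalled difference therefore depended on those 2 libraries.

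Rad17, the clamp loader, fell in QKO crypts, where its arrays lay close together. It read 8.94, 8.80, 8.89 and 8.95 in controls and 8.38, 8.43, 8.41, 8.53 and 8.50 in QKO arrays. The E2f TKO arrays read 8.53, 9.02, 8.70, 8.70 and 8.72 and the Myc KO arrays 8.68, 8.69, 8.72 and 8.82. Every QKO array was at or below the lowest array of any other group, and the nearest were a QKO and an E2f TKO array that both read 8.53. Rad17 fell by 0.45 ± 0.08 in QKO crypts, or 1.36-fold (adjusted p = 0.000502). In E2f TKO and Myc KO crypts the differences were -0.16 ± 0.08 and -0.17 ± 0.08 (adjusted p = 0.369 and 0.221). Without the libraries labelled E2f TKO 2 and 5 the E2f TKO difference was -0.25 ± 0.07 and passed (adjusted p = 0.0373). It did not pass without only E2f TKO 1, at -0.11 ± 0.07 (adjusted p = 0.485). Nor did it without E2f TKO 1, 2 and 5, at -0.19 ± 0.07 (adjusted p = 0.134).

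Wee1, the inhibitory kinase, did not pass in any comparison, and its groups of arrays overlapped. It read 9.58 to 9.91 in controls, 9.34 to 9.84 in E2f TKO, 9.23 to 9.70 in Myc KO and 9.41 to 9.88 in QKO arrays. The differences from control were -0.11 ± 0.13, -0.20 ± 0.14 and -0.13 ± 0.13 (limma adjusted p = 0.805, 0.409 and 0.504), with a QKO interval from -0.40 to 0.15. The value for E2f TKO was -0.23 ± 0.14 without the libraries labelled 2 and 5. A second probe set gave -0.06, -0.01 and -0.07. Pkmyt1, the related kinase that also inhibits CDK1, rose by 0.88 ± 0.09 in QKO crypts (adjusted p = 6.63e-06).

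**Figure D3:**
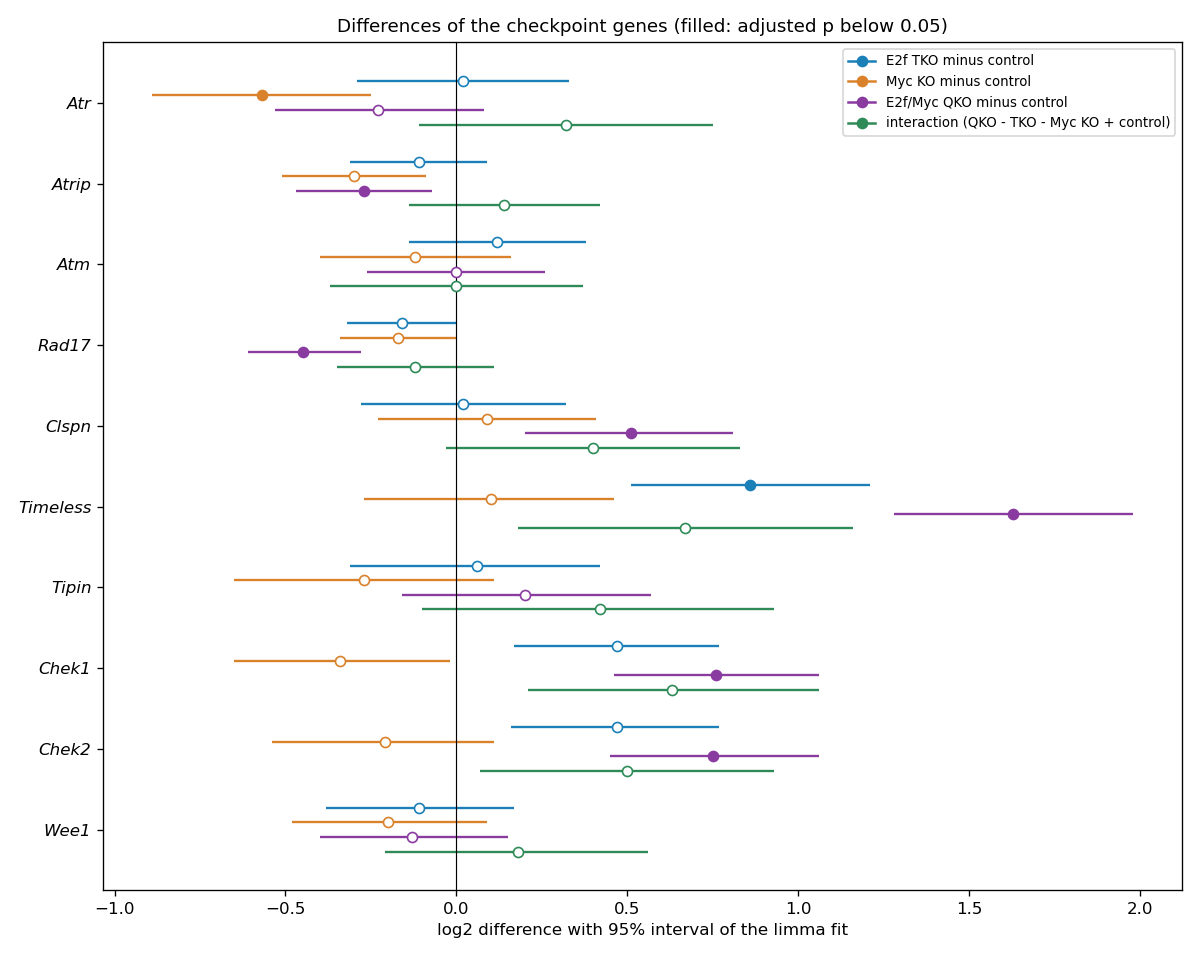
Log2 difference (horizontal axis) with its 95% interval from the limma fit for each of the 10 genes (vertical axis), for E2f TKO, Myc KO and QKO minus control and for the interaction; filled points have an adjusted p below 0.05. Filled points are Timeless in E2f TKO, Atr in Myc KO and, in QKO, Timeless, Chek1, Chek2 and Clspn above 0 and Rad17 and Atrip below it, and no interaction is filled.

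The promoters of these genes were read for letters that E2f and Myc factors are known to bind, since the factors deleted here act at such sites. RefSeq (GRCm38.p6) gave the 250 bases before and 50 after the start for 8 of the 10 genes. Wee1 and Tipin were not among them. The E2F core was searched as the letters TTCCCGC, the variant TTGGCGC, the variant TTCGCGC or the variant TTGCCGC on both strands and occurs in 9.57% of 32851 promoters of that length. It occurred in 4 of the 8, namely Chek1, Chek2 and Clspn, which rose in QKO crypts, and Atm, which did not pass. The E-box CACGTG, in 7.15% of promoters, occurred in 0 of the 8. Windows of 30 bases around the 4 matches are shown on the strand of the gene, 5′ to 3′, to set the letters beside these genes, with the core in capitals.
Chek1 (chr9:36726609-36726638, minus strand): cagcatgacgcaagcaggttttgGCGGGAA
Chek2 (chr5:110839819-110839848, plus strand): gcgggattagccGCGGGAAaccaagacgtc
Clspn (chr4:126556989-126557018, plus strand): taccgcgtctggGCGCGAAagctcgaactt
Atm (chr9:53536639-53536668, minus strand): atagagccggaaGCGGGAAggcgtgcgtac
The core of Chek2 began 152 bases before the start, and those of Atm, Clspn and Chek1 lay 16, 22 and 44 bases after it. All 4 hold the core on the opposite strand, so the capitals are its reverse complement. For Timeless the table's start lies 6.0 kb inside the annotated gene, so the window was not at its first start. A match is a description of the letters and does not show that a factor binds there.

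The QKO crypts were next compared with each of the other deletions. Against E2f TKO crypts, 2 of the 10 genes were higher and 1 lower, where 9.09% of all genes were higher and 7.95% lower. Timeless rose by a further 0.77 ± 0.15 (1.71-fold, limma adjusted p = 0.00321), Clspn was 0.49 ± 0.14 higher (adjusted p = 0.0207) and Rad17 fell by 0.29 ± 0.07 (adjusted p = 0.0134). Without the libraries labelled E2f TKO 2 and 5, Rad17 was at -0.20 and lost its call (adjusted p = 0.0622), while Timeless at 0.70 and Clspn at 0.55 kept theirs (adjusted p = 0.024 and 0.0377). Without E2f TKO 1 as well, Timeless was at 0.45 (adjusted p = 0.101) and Clspn at 0.36 (adjusted p = 0.16). When only QKO and E2f TKO arrays were fitted, Clspn and Rad17 missed the threshold (adjusted p = 0.0709 and 0.0658), and Clspn also did without QKO 4 (0.41, adjusted p = 0.0517). Chek1 and Chek2 each differed by 0.29 (adjusted p = 0.142 and 0.161), with intervals from 0.01 to 0.58 and from 0.00 to 0.57, and without QKO 1 Chek1 passed at 0.40 (adjusted p = 0.0433).

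Against Myc KO crypts, 3 of the 10 genes were higher in QKO and 1 was lower, where 4.6% of all genes were higher and 3.09% lower. Timeless was 2.89-fold higher (1.53 ± 0.16, adjusted p = 2.99e-05), Chek1 2.14-fold (1.10 ± 0.14, adjusted p = 0.00014) and Chek2 1.95-fold (0.97 ± 0.14, adjusted p = 0.000538). No QKO array overlapped a Myc KO array for these 3 genes or for Rad17. The share of all genes without such overlap was not counted. Rad17 fell by 0.28 ± 0.08 (adjusted p = 0.0355), a call that ended without any 1 of the 4 Myc KO arrays or of QKO 1, 2 and 3 (adjusted p = 0.059 to 0.113), and once Xist was a covariate (adjusted p = 0.0858). Clspn at 0.42 ± 0.14 and Tipin at 0.47 ± 0.17 missed the threshold (adjusted p = 0.0902 and 0.112). Clspn passed with quantile normalization (0.45, adjusted p = 0.0406), with array weights (0.38, adjusted p = 0.04) and without QKO 1 (0.52, adjusted p = 0.0257).

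The E2f TKO and Myc KO crypts, which share no arrays, differed from each other in the effector kinases. In E2f TKO relative to Myc KO crypts, 4 of the 10 genes were higher and 0 lower, where 7.87% of all genes were higher and 6.16% lower. Chek1 was 0.81 ± 0.14 higher (1.75-fold, adjusted p = 0.00131), Timeless 0.76 ± 0.16 (adjusted p = 0.00525), Chek2 0.68 ± 0.14 (adjusted p = 0.00482) and Atr 0.59 ± 0.15 (adjusted p = 0.0124). For Chek1, Chek2 and Timeless no array of one group overlapped the other, in the brightest probe set of each. The share of all genes without overlap was not counted here either. Atr overlapped through E2f TKO 1, at 8.26, and without the libraries labelled E2f TKO 2 and 5 its difference was 0.41 and did not pass (adjusted p = 0.0757), nor did it when only E2f TKO and Myc KO arrays were fitted (adjusted p = 0.0569). The other 3 calls stood without those 2 libraries, and that of Timeless was lost at 0.54 when its probe sets were averaged (adjusted p = 0.0613). For Atr, the probe set at a mean of 6.40 gave 0.02 ± 0.15 (adjusted p = 0.952 over all probe sets). Its dimmest, at 3.76, gave 0.95 ± 0.23 (adjusted p = 0.00948 over all probe sets).

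Whether the loss of E2f and of Myc combined by more than the sum of both was tested as the interaction, the QKO difference from control less the E2f TKO and Myc KO differences. None of the 10 genes passed, where 10 genes, 0.055% of all, did so. The largest were Timeless at 0.67 ± 0.23, Chek1 at 0.63 ± 0.20 and Chek2 at 0.50 ± 0.20 (limma adjusted p = 0.666, 0.653 and 0.722). These 3 had an unadjusted p below 0.05, as had 6.34% of all genes. Their intervals, from 0.18 to 1.16 for Timeless, lay above 0 before adjustment, and this design did not settle whether the combined change exceeds the sum.

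By group mean, Timeless, Chek1 and Chek2 ran from QKO down through E2f TKO. For Timeless both steps above control passed the test, and control and Myc KO, at 8.62 and 8.72, did not differ beyond their spread. For Chek1 the means were 8.73, 8.44, 7.97 and 7.63 in QKO, E2f TKO, control and Myc KO, and no neighbouring pair in that order passed. For Chek2 they were 9.38, 9.10, 8.63 and 8.42, again with no neighbouring pair passing. Rad17 ran the other way, with 8.45 in QKO below 8.73 in both E2f TKO and Myc KO and 8.89 in control, and only the step to QKO passed.

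The genes with the most similar course over the 18 arrays were found by the root mean square difference of log2 signals, each gene centred on its own mean. For Timeless they were Rad54l at 0.129, Gins2 at 0.168 and Msrb2 at 0.225. For Chek1 they were Gins1 at 0.106, Rpa2 at 0.116 and Mcm7 at 0.117, and for Chek2 they were Chek1 at 0.138, Rpa2 at 0.140 and Gins1 at 0.147. Several of these encode parts of the replication machinery, GINS and MCM subunits and the single-strand binding protein RPA. Clspn was closest to Hmga2 at 0.095, Rad17 to Tapt1 at 0.059 and Atrip to Cdk10 at 0.086. The arrays share their group structure, so these distances are descriptions.

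**Figure D4:**
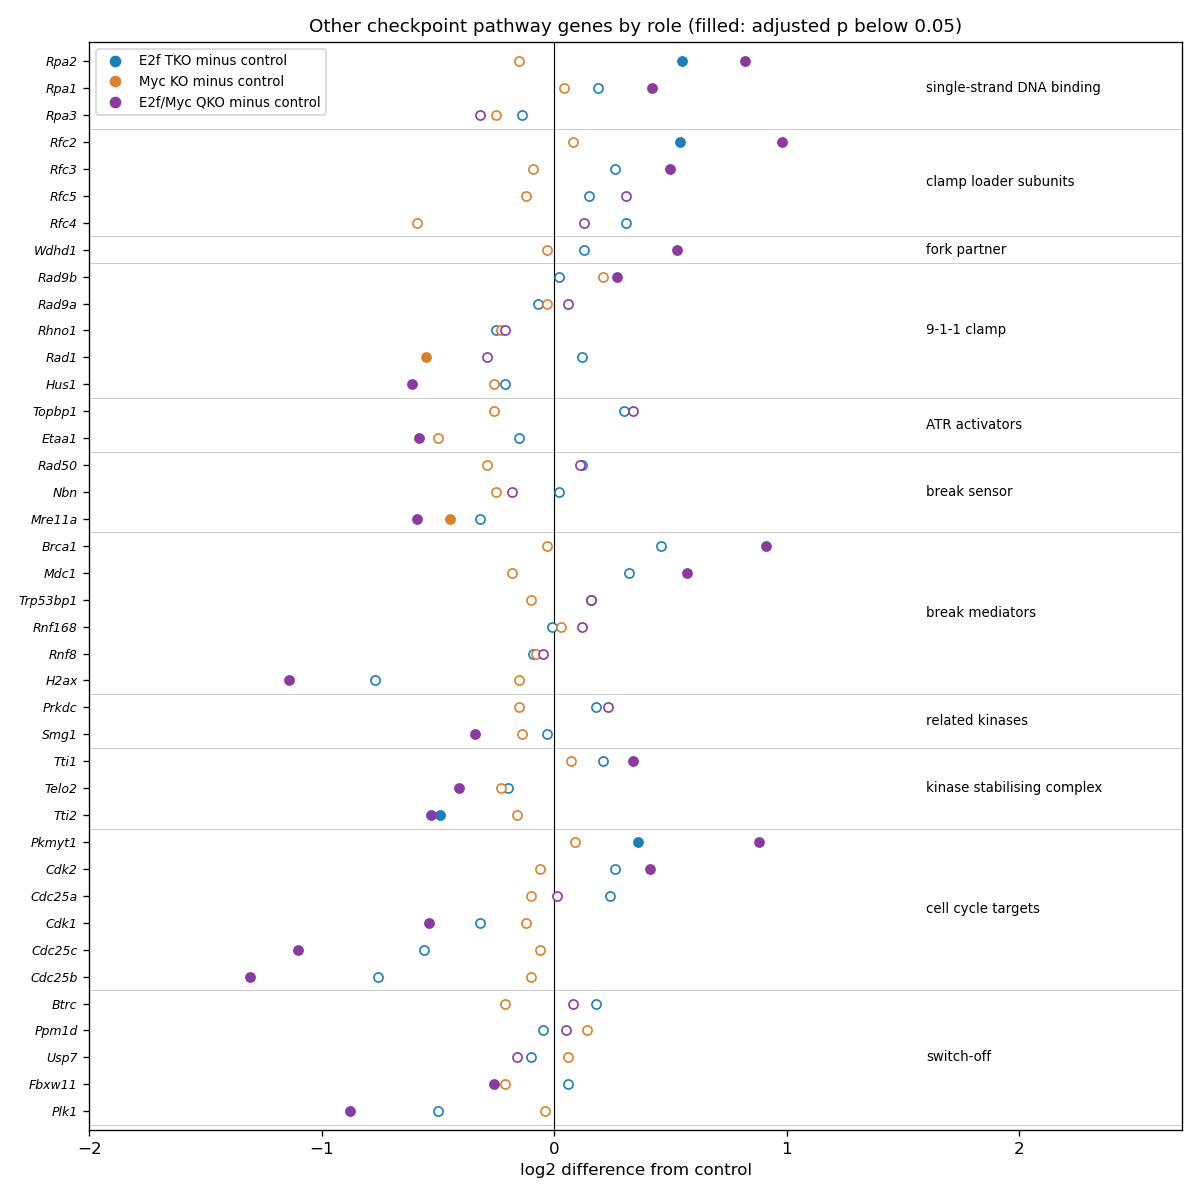
Log2 difference from control (horizontal axis) of the 40 other checkpoint pathway genes measured (vertical axis), grouped by role, in E2f TKO (blue), Myc KO (orange) and QKO (purple) crypts; filled points have an adjusted p below 0.05. In QKO 11 are filled above 0, led by Rfc2 at 0.98, and 12 below, led by Cdc25b at -1.31.

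The rest of the pathway was read from a list of 41 further genes, of which 40 were measured. In QKO crypts 11 rose, 12 fell and 17 did not pass, with a median difference of 0.06 beside 0.03 for all genes. In E2f TKO crypts 3 rose and 1 fell, and in Myc KO crypts 0 rose and 2 fell. Without the libraries labelled E2f TKO 2 and 5, the E2f TKO counts were 5 higher and 5 lower. They were 4 higher and 0 lower without only E2f TKO 1, and 6 higher and 4 lower without E2f TKO 1, 2 and 5. The counts of 11 and 12 of 40 in QKO crypts stand beside 14.3% of all genes higher and 12.6% lower, and the roles went both ways.

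Genes of the proteins that coat and mark stalled forks went both ways, and several did not pass. Rpa2 and Rpa1, which coat single-stranded DNA, rose by 0.82 ± 0.13 and 0.42 ± 0.13 in QKO crypts (limma adjusted p = 0.000251 and 0.0211), while Rpa3 did not pass at -0.32. Of the 4 small clamp loader subunits that pair with RAD17, Rfc2 rose by 0.98 ± 0.11 and Rfc3 by 0.50 ± 0.13 (adjusted p = 1.56e-05 and 0.0083), and Rfc4 and Rfc5 did not pass. Rpa2 and Rfc2 were also higher in E2f TKO crypts, by 0.55 and 0.54 (adjusted p = 0.0268 and 0.012), and by 0.63 and 0.60 without the libraries labelled E2f TKO 2 and 5 (adjusted p = 0.0204 and 0.0106). Wdhd1, a fork partner, rose by 0.53 ± 0.14 in QKO crypts. The clamp itself went both ways, since Hus1 fell by 0.61 ± 0.15, Rad9b rose by 0.27 ± 0.09 and the other 3 measured genes did not pass. Rad1 of the clamp was -0.55 ± 0.16 in Myc KO crypts, where it passed (adjusted p = 0.0409). Of the ATR activators, Etaa1 fell by 0.58 ± 0.16 in QKO crypts and Topbp1, at 0.34 ± 0.16, did not pass.

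On the double-strand break side, Brca1 and Mdc1, which gather repair factors at breaks, rose in QKO crypts by 0.91 ± 0.15 and 0.57 ± 0.15 (adjusted p = 0.000273 and 0.00953). H2ax, the histone variant marked by ATM and ATR, fell by 1.14 ± 0.23 (adjusted p = 0.00145), and Mre11a, the nuclease of the break sensor, fell by 0.59 ± 0.11 (adjusted p = 0.000605). Mre11a was also lower in Myc KO crypts, at -0.45 ± 0.11 (adjusted p = 0.0203). The other 5 genes of these roles did not pass. H2ax was lower in E2f TKO crypts without the libraries labelled 2 and 5, at -1.13 ± 0.19 (adjusted p = 0.00254), and did not pass with them. The same held for Mre11a, lower at -0.41 ± 0.12 (adjusted p = 0.045), and for Brca1, higher at 0.54 ± 0.16 (adjusted p = 0.0496). With all 5 arrays these 2 missed the threshold, at -0.32 and 0.46 (adjusted p = 0.139 and 0.119). Without only E2f TKO 1, H2ax was at -0.55, Mre11a at -0.24 and Brca1 at 0.52. None of these passed (adjusted p = 0.0948, 0.185 and 0.0575). Among the proteins that stabilise the ATM and ATR kinases, Tti2 fell by 0.53 and Telo2 fell by 0.41, while Tti1 rose by 0.34. Tti2 was the 1 gene of the list that fell in E2f TKO crypts, at -0.49 (adjusted p = 0.0417). It was at -0.63 ± 0.11 without the libraries labelled E2f TKO 2 and 5 (adjusted p = 0.002), and at -0.47 without E2f TKO 1, where it did not pass (adjusted p = 0.0526). Of the related kinases, Smg1 fell by 0.34 ± 0.12 (adjusted p = 0.0466) and Prkdc did not pass.

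The targets at the cell cycle engine also went both ways. Cdc25b and Cdc25c, phosphatases that remove the WEE1 mark, fell by 1.31 ± 0.26 and by 1.10 ± 0.20 in QKO crypts (limma adjusted p = 0.00119 and 0.000841), and Pkmyt1, which adds such a mark, rose. In all, 2 of the 6 genes of this role rose, 3 fell and Cdc25a, at 0.01, did not pass. Pkmyt1 also rose in E2f TKO crypts, by 0.36 ± 0.09 (adjusted p = 0.0416), a call that was lost at 0.35 ± 0.10 without the libraries labelled E2f TKO 2 and 5 (adjusted p = 0.0513). Without those libraries Cdc25b and Cdc25c passed as lower in E2f TKO crypts, at -1.17 ± 0.21 and -0.81 ± 0.21 (adjusted p = 0.00321 and 0.0267), as they did not with all 5 arrays. Cdc25a passed there as higher, at 0.35 ± 0.08 (adjusted p = 0.0105), and did not with all 5 arrays. Without only E2f TKO 1, Cdc25b was at -0.49, Cdc25c at -0.34 and Cdc25a at 0.24. None of these passed (adjusted p = 0.141, 0.187 and 0.131). Of the 5 genes that switch the checkpoint off, Plk1 fell by 0.88 ± 0.21 and Fbxw11 fell by 0.26 ± 0.06, and the other 3 did not pass. Among these 3, Btrc passed as higher in E2f TKO crypts only without the libraries labelled 2 and 5, at 0.26 ± 0.07 (adjusted p = 0.0353).

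Of 18 measured genes of the p53 arm, which ATM and CHK2 can activate, 6 rose and 1 fell in QKO crypts, with a median of 0.20. Over all genes 14.3% rose and 12.6% fell, with a median of 0.03. Phlda3, a p53 target that restrains AKT, rose by 1.11 ± 0.26 (adjusted p = 0.00416), and Trp53inp1 rose by 1.02 ± 0.22 (adjusted p = 0.00277). Sesn1 fell by 0.72 ± 0.17 (adjusted p = 0.00544). Cdkn1a, which encodes the CDK inhibitor p21, was at 0.27 ± 0.32 and did not pass. None of the 18 passed in E2f TKO crypts, and 1 was lower in Myc KO crypts. The mean of the 18 in the library labelled E2f TKO 1 was 0.65 above the control mean.

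Genes of S phase and of mitosis changed as well. Of 12 S-phase genes, 9 rose and 0 fell in QKO crypts (median 0.59), led by the helicase subunits Mcm4 at 1.11 ± 0.16, Mcm5 at 1.03 ± 0.16 and Mcm2 at 1.01 ± 0.16. In E2f TKO crypts 4 rose (median 0.42), or 3 without the libraries labelled 2 and 5 and 7 without E2f TKO 1, and in Myc KO crypts 0 passed. Of 11 mitotic genes, 9 fell and 0 rose in QKO crypts (median -1.07), Ccnb2, a cyclin of mitosis, by as much as -1.70 ± 0.32. Their mean signal was 8.57 to 9.32 in QKO and 9.88 to 10.14 in control arrays. In E2f TKO crypts 1 of the 11 mitotic genes fell, and 6 did without the libraries labelled E2f TKO 2 and 5. The count was 1 without only E2f TKO 1, and 4 without E2f TKO 1, 2 and 5. What part these shifts had in the differences of Timeless, Chek1 and Chek2 was not tested.

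Markers of other cells also moved. In QKO crypts all 5 enteroendocrine and all 4 tuft cell markers rose, as did 2 of 5 stem cell markers, and the means of the enteroendocrine list were 10.65 to 11.21 in QKO against 9.64 to 10.19 in control arrays. The tuft list read 7.48 to 7.93 against 6.98 to 7.11. In E2f TKO and in Myc KO crypts 2 of the 5 enteroendocrine markers rose, and every array of both groups, at 10.42 to 10.65 and 10.24 to 10.59, had a mean of that list above every control. Of the tuft markers 1 of 4 rose in Myc KO and 0 in E2f TKO crypts. Among T cell markers 1 of 9 rose, among fibroblast markers 1 of 6, and among enterocyte markers 0 of 7. The T cell list ranged from 6.41 to 9.03 over the E2f TKO arrays and from 7.03 to 8.59 over the controls. For actin, the 3′ probe set exceeded the 5′ one, a gap that widens as RNA degrades, by log2 differences of 0.31 to 0.44 in control, 0.26 to 0.78 in E2f TKO, 0.18 to 0.22 in Myc KO and 0.19 to 0.31 in QKO arrays. The 0.78 was that of the library labelled E2f TKO 2, and the other E2f TKO arrays were at 0.26 to 0.40. For Gapdh the same gap was 0.24 in that library and negative in all other arrays. What part these values had in the differences of the checkpoint genes was not tested.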

How the data were processed

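The values are log2 signals as deposited by the authors in a value table of 45101 probe sets and 18 arrays, the log2 scale being inferred from their range. How they were normalized and summarised from probes is not given in the sources used here, and they were used as deposited. Names come from the array's annotation, and the 34945 probe sets with 1 symbol gave 18193 genes, each represented by its brightest probe set on average. Groups come from the sample titles. The tests used limma 3.58.1 (lmFit, contrasts.fit and eBayes, R 4.3.3) in 1 fit of 4 group means, two-sided, with Benjamini-Hochberg adjustment and a threshold of 0.05, and the script was tested on simulated data. Array pairs correlated at 0.973 to 0.996, 0 pairs were identical, and 0 columns belonged to no sample. The number of arrays limits the precision, and dim probe sets were kept.

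The members and gene lists were chosen with earlier results of these data known. All 10 members are named. Of the other pathway genes at most 3 per role past the test in QKO versus control are named, smallest p first, and at most 3 each of the p53 arm and of the S-phase and mitosis lists. Genes named beyond that rule were chosen after their values were seen. Alternatives were quantile normalization, a filter at the median level, averaging a gene's probe sets, no _s_at or _x_at probe sets, every probe set, 2 groups alone, replicate block, trended and robust eBayes, array weights, Xist as a covariate, and fits without the libraries labelled E2f TKO 2 and 5 or without each array. The fit without E2f TKO 1, 2 and 5, and the gene lists without doubtful libraries, were chosen after seeing the data. Promoters were read from RefSeq (GRCm38.p6).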

Additional observations from a re-analysis of the deposited data

Results flagged for a closer look

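Of 40 sets of arrays (10 genes in 4 groups) checked for an array far from the rest of its group, 2 stood out, and chance alone flags about 1 in 20. Atr read 9.04 in control 4, where the other 3 controls read 8.71 to 8.75. That array was the highest control for 9 of the 10 genes, Atrip being the exception, and without it the Atr difference of Myc KO crypts was -0.49 and did not pass (limma adjusted p = 0.103). Clspn read 8.02 in the library labelled E2f TKO 1, where the other 4 E2f TKO arrays read 8.48 to 8.62, and without it the Clspn difference of E2f TKO crypts was 0.13 ± 0.13 (adjusted p = 0.673).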

How the results depend on the processing

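Of the 19 calls made over the 7 comparisons, 11 passed under all alternatives run and 8 were lost under at least 1, and 0 reversed. Of 51 differences that missed the threshold, 11 passed under at least 1 alternative. With quantile normalization 2 genes were lower in Myc KO (Atr and Atrip), and with the mean of probe sets 0 were. Among genes above the median level 1 was lower in QKO, because Atrip was not tested. In fits of the 2 groups alone 2 were lower in Myc KO, 1 was lower in QKO, and 1 was higher and 0 lower in QKO against E2f TKO. The labels do not say whether equal replicate numbers mark a shared litter, batch or day. Of 25 same-numbered pairs, 13 deviated together above 0.1 (r = -0.16 to 0.35). Pairs with different numbers were not compared, so whether the numbers pair the samples is not known here. With the replicate block 2 genes were higher in E2f TKO (Timeless and Chek1, the latter at 0.43, adjusted p = 0.047) and 1 was lower in QKO, as Atrip missed (adjusted p = 0.0526). In QKO against Myc KO the block gave 5 higher, with Clspn at 0.37 and Tipin at 0.40 added (adjusted p = 0.0335 and 0.0438), and 0 lower, as Rad17 missed (adjusted p = 0.0501). Array weights gave 3 higher in E2f TKO and 2 lower in Myc KO, and over all genes raised those counts from 305 to 735 and from 858 to 1805. Xist as a covariate gave 1 lower in QKO and 0 lower in QKO against Myc KO. Without the libraries labelled E2f TKO 2 and 5, 1 gene was lower in E2f TKO and 0 lower in QKO against E2f TKO. Without E2f TKO 1, 2 and 5, 3 were higher in E2f TKO, 0 higher in QKO against E2f TKO and 5 higher in QKO against Myc KO. Where causes are not named, the cause was not tested.

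Leaving out each array in turn, the genes higher in E2f TKO numbered 1 to 3, those lower in Myc KO 0 to 1 and those lower in QKO 1 to 2. In QKO against E2f TKO 1 to 3 were higher and 1 to 2 lower, and in QKO against Myc KO 3 to 5 were higher and 0 to 1 lower. Signals near the array medians are not shown to be above background. That limits Atrip, at a mean of 6.62, and the dimmer probe sets of Atr, Chek1 and Clspn. With all genes, quantile normalization moved the median QKO difference from 0.03 to 0.01.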
